A study of Mus musculus with 44 samples.

Results

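The libraries described here are the 16 of 44 hypothalamus libraries from obese mice given a control oligonucleotide, AM608. They were chosen by label alone: the 8 libraries of batch 2 (replicates 5 to 12) were compared with 8 others, 4 of batch 1 (replicates 1 to 4) and 4 of batch 3 (replicates 13 to 16). All 16 mice were C57Bl/6J, ate a high-fat diet for 11 weeks until obese, and received intravenous AM608 at 3.3 mg/kg on 3 successive days. AM608 is a 15-nt oligonucleotide with locked nucleic acid bases directed at miR-608, a primate miRNA, and has no predicted match in mice. Tissue was collected 7 days after treatment. Genotype, diet, oligonucleotide and dose therefore do not differ between the groups, and batch is the only label that does. The labels do not say whether a batch is a set of mice, a dissection, an extraction or a sequencing run, and these cannot be told apart. With 3 batches, the p-values measure the spread between libraries and not between batches.

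Mature miRNAs are short RNAs cut from the arms of a hairpin precursor; bases 2 to 8, the seed, pair with target mRNAs. tRNA fragments (tRFs) are pieces of transfer RNA, named by where they lie: 5'-halves and 3'-halves are cut at the anticodon, 5'-tRFs and 3'-tRFs hold one end, and internal fragments (i-tRFs) hold neither. In the hypothalamus, which governs feeding and energy use, neurons, glia, vessels and ependymal cells are mixed, and the pituitary and choroid plexus lie nearby. In such bulk tissue, fewer cells of a type and less RNA per cell cannot be told apart.

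The mature sequences of miRNAs that separated the batches are shown with the seed in capitals, 5' to 3', from RefSeq on GRCm38.p6. The first set was higher in batch 2. miR-7a-5p and miR-7b-5p share the seed GGAAGAC.
miR-7a-5p: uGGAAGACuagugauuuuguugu
miR-7b-5p: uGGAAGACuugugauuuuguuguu
miR-34b-3p: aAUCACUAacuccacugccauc
miR-298-5p: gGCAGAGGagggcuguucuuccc
miR-758-3p: uUUGUGACcugguccacua
miR-217-5p: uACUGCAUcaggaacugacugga
miR-216a-5p: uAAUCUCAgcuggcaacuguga
miR-216b-5p: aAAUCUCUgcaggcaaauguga

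The next set was lower in batch 2. miR-221-3p and miR-222-3p share the seed GCUACAU, and let-7a-5p, let-7d-5p, let-7f-5p, let-7g-5p and let-7i-5p share GAGGUAG.
miR-128-3p: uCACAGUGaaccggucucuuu
miR-9-5p: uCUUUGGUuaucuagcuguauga
miR-221-3p: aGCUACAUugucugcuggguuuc
miR-222-3p: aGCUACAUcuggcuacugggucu
miR-139-5p: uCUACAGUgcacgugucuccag
miR-31-5p: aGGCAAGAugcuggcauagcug
miR-132-3p: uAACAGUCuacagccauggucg
let-7f-5p: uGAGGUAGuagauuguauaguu

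Nested sets of tRFs that passed the test are shown as DNA letters, to let the shared stretch be seen. They come from the deposited table, which pairs each fragment with a tRNA; genome coordinates are not used here. Capitals mark the stretch shared by the fragments of one set. The first 2 are internal pieces of glutamine tRNA and the next 3 of leucine tRNA, all higher in batch 2.
tRF-23-DRFU8U767: AATCCAGCGATCCGAGTTCaaat
tRF-19-DRFU8U25: AATCCAGCGATCCGAGTTC
tRF-18-W96KM80E: tCTTCGGAGGCGTGGGTt
tRF-17-W96KM8N: tCTTCGGAGGCGTGGGT
tRF-16-NS5J7KE: CTTCGGAGGCGTGGGT
The last 2 are 5'-halves of the lysine tRNA LysCTT, lower in batch 2.
tRF-34-PSQP4PW3FJI0E5: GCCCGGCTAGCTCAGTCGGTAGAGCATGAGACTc
tRF-33-PSQP4PW3FJI0W: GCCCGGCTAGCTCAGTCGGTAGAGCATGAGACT
Fragments of one set overlap and are not separate results.

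The miRNA table held 3020192 to 5815385 counts per AM608 library and that of tRFs 53683 to 221358, so counting error is much wider for tRFs. The most similar pair of libraries within a group still differed by a chi-square of 10.5 per degree of freedom, so no library was a copy of another. Library 5 of batch 2 stood apart through miR-375-3p and miR-200 miRNAs, described below. Libraries 8, 10 and 12 of batch 2 stood apart in tRFs. Levels are CPM (counts scaled to a common library total) within each table after TMM scaling, and tests are edgeR quasi-likelihood F tests adjusted by Benjamini-Hochberg over all features tested, called at 0.05.

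Batch 2 differed from batches 1 and 3 in most of the miRNAs tested. Of 554 tested, batch 2 had 162 higher (29.2%) and 186 lower (33.6%), and 103 of them changed by at least a log2 fold change of 1, 56 higher and 47 lower. DESeq2 gave a near-even split too, with 50% of its calls higher. In 178 of the 554 miRNAs tested, all of them among the 348 called, the groups did not overlap. All 8 batch 2 libraries lay above all 8 others for 77 miRNAs and below them for 101. The split depends on the scaling. With TMM over both tables, calls were 262 higher and 115 lower (69.5% of calls higher), and with library totals alone 302 and 90 (77%), while the median log2 fold change of all miRNAs moved to 0.24 and 0.39 from -0.02. Fold changes below are relative to the TMM scale of the miRNA table, and a direction that turns under another scaling is named.

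Both other batches differed from batch 2 to a like extent and hardly from each other. Batch 2 minus batch 1 gave 154 higher and 172 lower miRNAs (58.8% called), batch 2 minus batch 3 gave 145 and 170 (56.9%), and 274 miRNAs were called in the same direction in both; these comparisons share the batch 2 libraries. Batch 3 minus batch 1 gave 1 call, lower, of 554 (0.181%), with 71 at an unadjusted p under 0.05 in edgeR. With 4 libraries a side that comparison is less sensitive than those with 8, and without library 13 it gave 30 calls. Principal component 1 accounted for 67.2% of variance among miRNAs, of which 97.1% lay between the 3 batches.

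**Figure D1:**
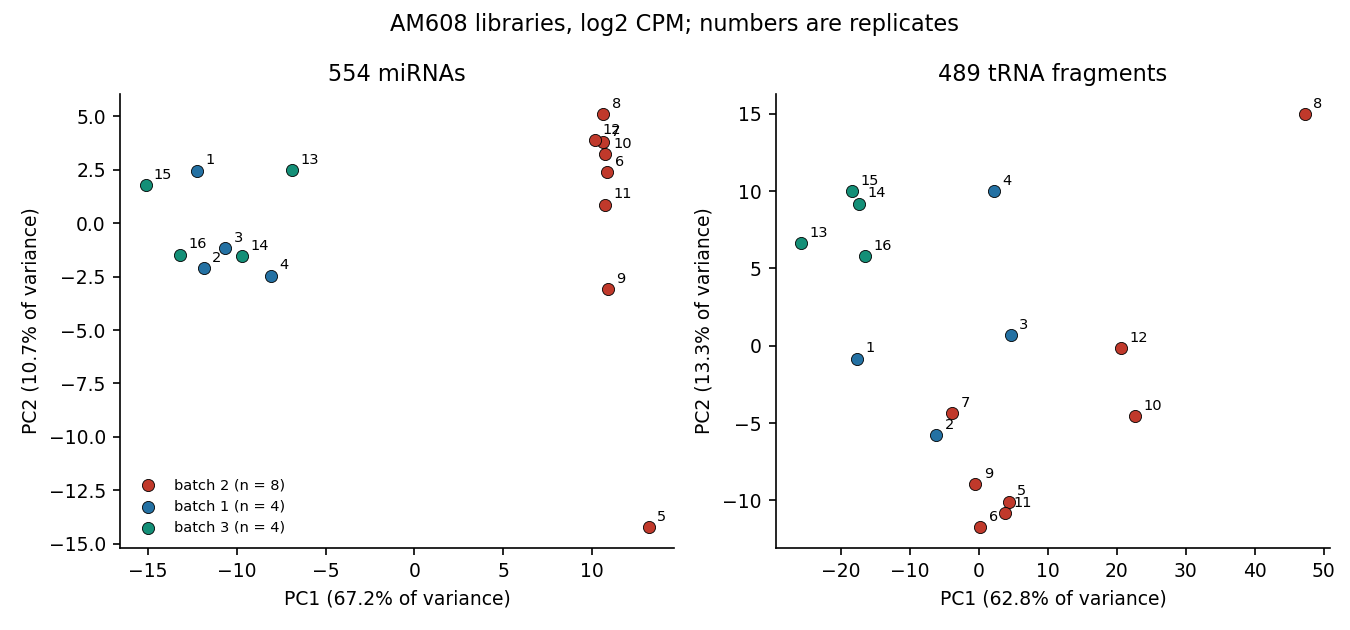
First and second principal components of log2 CPM for 554 miRNAs (left) and 489 tRFs (right); each point is an AM608 library, numbered by replicate and coloured by batch. On the miRNA axis all 8 batch 2 libraries lie to the right of the 8 others and library 5 lies apart on the second component, whereas among tRFs libraries 8, 10 and 12 lie to the right and the other batch 2 libraries overlap batch 1.

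The batches were also compared in separate libraries. AM132 libraries, from obese mice given an oligonucleotide against miR-132 at the same dose, were split over batches 1 to 3 in the same numbers and entered no AM608 fit. Among 566 miRNAs tested in them, 332 (58.7%) differed between batch 2 and the other batches, 168 higher and 164 lower. Of the 347 AM608 calls that could be tested in AM132, 342 had the same sign, 286 were also called there with that sign, and 0 were called with the opposite sign. Across 550 miRNAs the log2 fold changes in AM608 and AM132 had a Pearson correlation of 0.944, a description over miRNAs that share libraries. The test of whether the batch difference itself differed between the oligonucleotides called 0 of 595 miRNAs (0%) in edgeR, with 27 at an unadjusted p under 0.05 and a lowest adjusted p of 0.363.

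**Figure D2:**
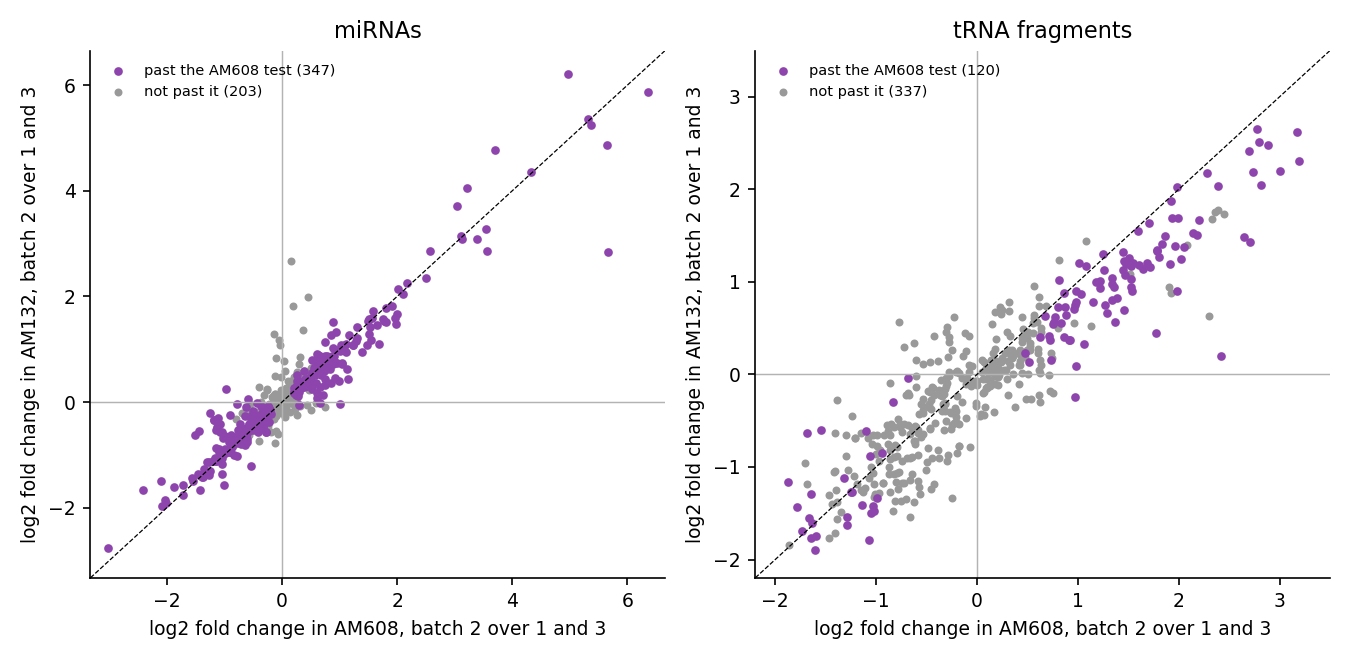
Log2 fold change of batch 2 over batches 1 and 3 in AM608 (horizontal) and in AM132 (vertical) for 550 miRNAs (left) and 457 tRFs (right); purple points passed the AM608 test, grey ones did not, and the dashed line marks equal change. Points follow the dashed line in both panels, and 342 of 347 called miRNAs and 119 of 120 called tRFs share their sign.

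Among miRNAs that were higher in batch 2, the miR-34 family stood out by size and by how tightly the libraries agreed. miR-34b and miR-34c come from one precursor locus on chromosome 9, are induced by p53 and are abundant in ciliated cells. miR-34c-5p was 1101 to 1343 CPM in batch 2 (median 1218), against 124, 112, 108 and 141 CPM in batch 1 and 141, 88.2, 104 and 105 CPM in batch 3. The groups lay far apart, with a log2 fold change of 3.39 ± 0.095 (SE), or 10.5-fold (edgeR adjusted p = 2.28e-17). The neighbouring miR-34b-3p was 121 to 160 CPM in batch 2 and 9.84 to 12.6 CPM in batches 1 and 3 (log2 fold change 3.56 ± 0.082, adjusted p = 9.65e-19). Its mature sequence lies on chromosome 9 of GRCm38 on the minus strand, from 51103574 to 51103595, where Btg4 has an intron on the other strand. miR-34a-5p, the p53-responsive family member from another locus, was also higher (60.5 ± 11.5 CPM in batch 2, 15.5 ± 5.55 CPM in batches 1 and 3; SD, n = 8 each; log2 fold change 1.96 ± 0.18).

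A set of low-level miRNAs had still larger folds; they were picked out after their values were seen. miR-216a, miR-216b and miR-217 come from one stretch of chromosome 11 and are known as miRNAs of the exocrine pancreas. miR-217-5p was 111 to 159 CPM in all 8 batch 2 libraries and 0.683 to 3.32 CPM in the 8 others, a log2 fold change of 6.35 ± 0.21. The miRNAs of this set passed the count filter only because of their counts in batch 2, so no p-value is given for them. miR-216b-5p was 120 to 178 CPM in batch 2 and 1.81 to 5.68 CPM in batches 1 and 3 (log2 fold change 5.37 ± 0.19), and miR-216a-5p 44.2 to 70.0 CPM and 0.258 to 1.89 CPM (5.64 ± 0.19). No library of batch 2 fell near the other groups for any of these. On GRCm38 the mature miR-217-5p lies at 28763761 to 28763783 and miR-216a-5p at 28757018 to 28757039, plus strand, both in introns of the noncoding gene Gm12082, and miR-216b-5p at 28746204 to 28746225 outside annotated genes. miR-653-5p, from an intron of Calcr, the calcitonin receptor gene, was 56.0 to 78.2 CPM in batch 2 and 1.29 to 8.29 CPM in the others (log2 fold change 4.33 ± 0.33). In AM132 the log2 fold changes were 5.87 for miR-217-5p, 5.25 for miR-216b-5p, 4.87 for miR-216a-5p and 4.36 for miR-653-5p.

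miR-7a-5p and miR-7b-5p, miRNAs of neuroendocrine cells of hypothalamus and pituitary, were the abundant ones that rose. miR-7a-5p was 80293 to 138520 CPM in batch 2 (median 99989), against 45110, 36190, 24150 and 41230 CPM in batch 1 and 44980, 24650, 28130 and 38600 CPM in batch 3. The lowest batch 2 library exceeded the highest of the others, and the log2 fold change was 1.53 ± 0.15 (2.89-fold, adjusted p = 1.02e-07). miR-7b-5p was 18543 to 36859 CPM in batch 2 and 4840 to 9952 CPM in the others (log2 fold change 1.75 ± 0.17). The passenger arm miR-7a-1-3p, cut from the hairpin in an Hnrnpk intron, was lower (36.7 CPM in batch 2 and 47.7 CPM in the others, log2 fold change -0.38 ± 0.098), and miR-7a-2-3p was 127 and 112 CPM (0.18 ± 0.11, not called). The call of miR-7a-1-3p as lower ended with TMM over both tables and with library totals alone.

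Library 5 set the size of the change in the epithelial and endocrine miRNAs. miR-375-3p, abundant in pituitary and pancreatic islets, was 13770 CPM in library 5 and 68.2 to 198.7 CPM in the other 7 libraries of batch 2, against 26.1 to 46.8 CPM in batches 1 and 3. All 8 batch 2 libraries still lay above the 8 others. The log2 fold change was 5.67 ± 1.5 (adjusted p = 0.00339) with library 5 and 1.44 without it (adjusted p = 3.5e-05). miR-200c-3p, an epithelial miRNA, was 1745 CPM in library 5 and 5.24 to 45.3 CPM in the other batch 2 libraries, against 4.133 to 12.06 CPM in batches 1 and 3 (log2 fold change 4.97 ± 1.4, or 1.27 without library 5). The calls of miR-200a-3p and miR-200b-3p ended without library 5 (adjusted p = 0.248 and 0.123) and in DESeq2 (0.191 and 0.0777), and that of miR-200a-3p also with no low-count filter (0.0517).

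The remaining large rises were shared by all 8 libraries. miR-298-5p, from an imprinted locus on chromosome 2, was 1256 to 1492 CPM in batch 2 and 131 to 439 CPM in batches 1 and 3 (log2 fold change 2.50 ± 0.22, adjusted p = 5.44e-08). miR-758-3p, of the imprinted Dlk1-Dio3 cluster on chromosome 12, was 408 to 546 CPM in batch 2 and 85.5 to 142 CPM in the others (2.10 ± 0.12). The groups overlapped in neither. miR-490-3p, from an intron of the muscarinic receptor gene Chrm2, was 124 to 195 CPM in batch 2 and 32.03 to 77.5 CPM in the others (1.66 ± 0.17), and miR-672-5p, from an intron of Nexmif, was 133 to 203 CPM and 41.5 to 67.3 CPM (1.59 ± 0.12).

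**Figure D3:**
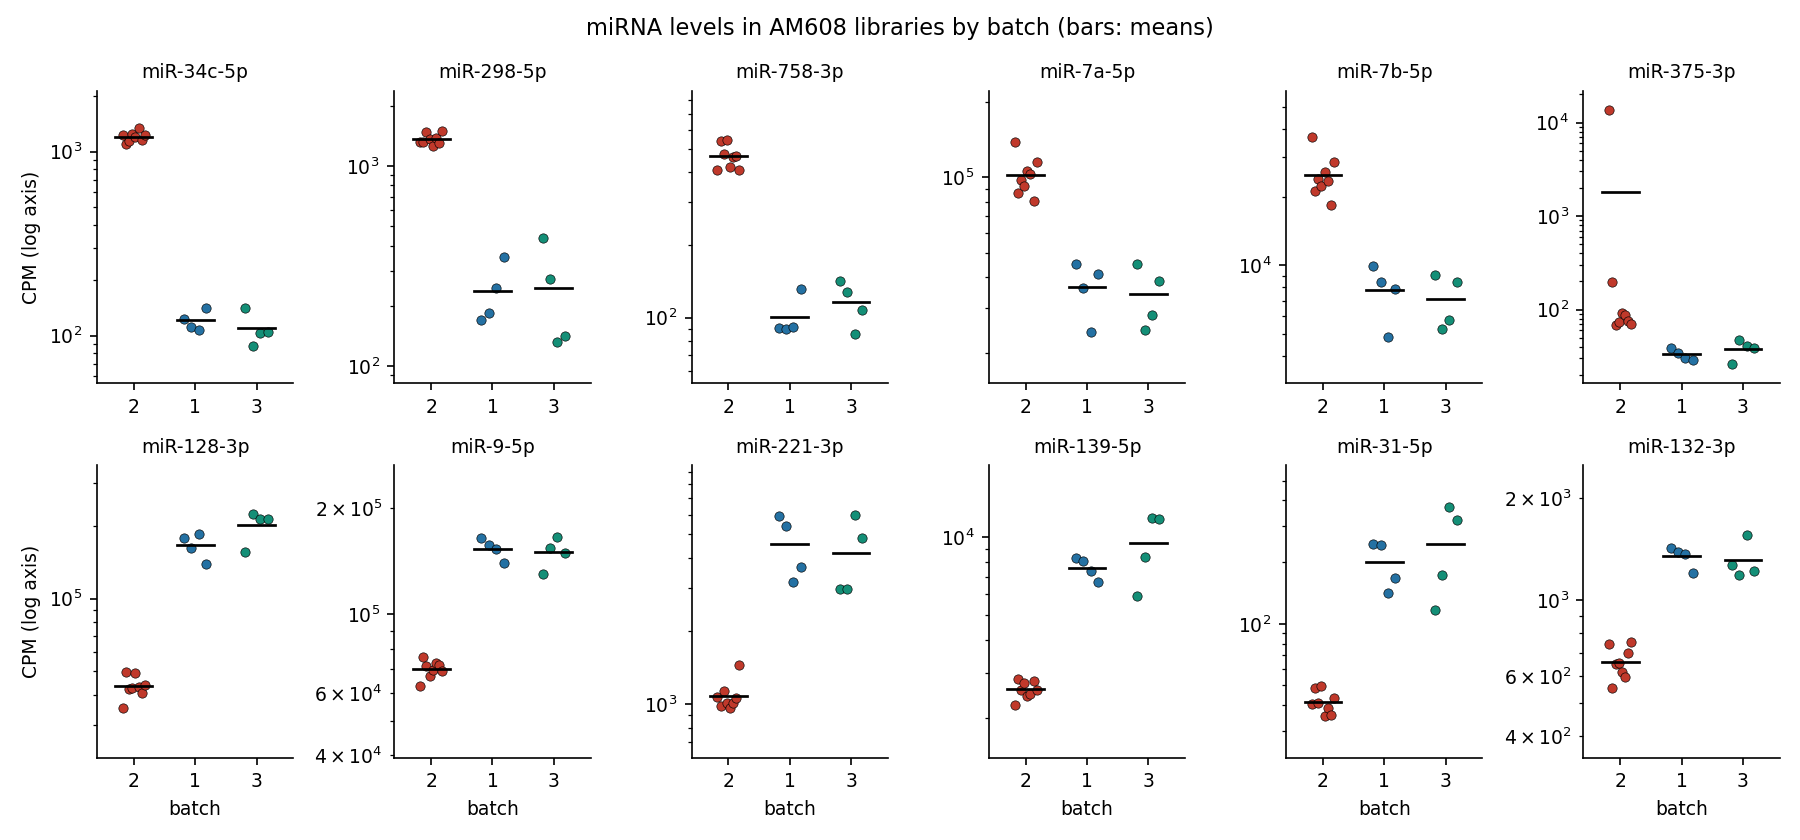
CPM on log axes of 12 miRNAs in AM608 libraries; each point is a library, batch 2 stands left of batches 1 and 3, and bars are means. In all 12 panels the 8 batch 2 libraries lie above (top row) or below (bottom row) the 8 others, and in the miR-375-3p panel library 5 stands at 13770 CPM.

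Several of the most abundant miRNAs fell. miR-128-3p, a neuronal miRNA that limits excitability, was 35151 to 49876 CPM in batch 2 (median 42857), against 178500, 161600, 185200 and 139500 CPM in batch 1 and 155500, 222700, 214000 and 213400 CPM in batch 3. By mean CPM it was the most abundant miRNA in batches 1 and 3, while in batch 2 miR-7a-5p, miR-9-5p, miR-26a-5p and miR-99a-5p stood above it. Between the groups miR-128-3p had a log2 fold change of -2.08 ± 0.097 (4.23-fold lower, adjusted p = 1.71e-13). It is encoded in introns of R3hdm1 on chromosome 1 and Arpp21 on chromosome 9. The passenger arm miR-128-1-5p of the R3hdm1 hairpin, picked out after its value was seen, was 1.09 to 2.47 CPM in batch 2 and 10.5 to 21.2 CPM in the others (log2 fold change -3.03 ± 0.18). This arm passed the count filter only because of its counts in batches 1 and 3. miR-9-5p, which controls neural progenitors and neurons, was 62818 to 75955 CPM in batch 2 and 130110 to 165520 CPM in batches 1 and 3 (-1.11 ± 0.057, adjusted p = 6.59e-13). miR-26a-5p fell less, with 52073 to 57734 CPM in batch 2 and 74888 to 98334 CPM in the others (-0.62 ± 0.059). The 10 most abundant miRNAs held 49.9 ± 0.83% of miRNA counts in batch 2 and 56.6 ± 0.87% in batches 1 and 3 (SD, n = 8 each; exact 2-sided permutation, adjusted over 19 library values, p = 0.000738).

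Other abundant miRNAs were not called on the TMM scale. miR-99a-5p was 45145 ± 3948 CPM in batch 2 and 47317 ± 7444 CPM in batches 1 and 3 (SD, n = 8 each; log2 fold change -0.07 ± 0.084, edgeR adjusted p = 0.501); its direction turns with scaling over both tables (0.20) and with library totals alone (0.36), under which it was called. miR-125b-5p was 27714 ± 1881 CPM in batch 2 and 26128 ± 1624 CPM in the others (0.09 ± 0.054, edgeR adjusted p = 0.182). miR-125b-5p was called higher with RLE scaling (0.13, adjusted p = 0.0324), in DESeq2 (0.13, 0.0191), with the stricter filter (0.12, 0.0322), with TMM over both tables (0.35, 1.93e-06), with library totals alone (0.50, 9.72e-08) and without library 5, 9, 14 or 16 (0.12 to 0.13). A p above the threshold does not show that they were level.

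miR-221 and miR-222, an X-linked pair with one seed that acts on cell cycle and vessel genes, fell together. miR-221-3p was 965 to 1448 CPM in batch 2, against 5914, 5403, 3173 and 3669 CPM in batch 1 and 2985, 2968, 5990 and 4823 CPM in batch 3 (log2 fold change -2.01 ± 0.16, adjusted p = 1.18e-08). miR-222-3p was 1594 to 2161 CPM in batch 2 and 3445 to 7395 CPM in batches 1 and 3 (-1.46 ± 0.15), and the minor arm miR-221-5p was 78.2 to 102 CPM and 166 to 373 CPM (-1.55 ± 0.14). Within batches 1 and 3 both miRNAs varied about 2-fold.

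Both arms of miR-139, from an intron of the phosphodiesterase gene Pde2a on chromosome 7, fell by the same amount. miR-139-5p was 2254 to 2847 CPM in batch 2 and 5906 to 11806 CPM in batches 1 and 3 (-1.72 ± 0.12), and miR-139-3p 64.9 to 95.4 CPM and 188 to 337 CPM (-1.71 ± 0.12). miR-31-5p was 35.4 to 49.6 CPM in batch 2 and 116 to 372 CPM in the others (-2.41 ± 0.21, adjusted p = 2.01e-08). Neuronal miRNAs hosted by Slit2 and Slit3 (miR-218-5p, -1.35 ± 0.11) and by Tenm4 (miR-708-5p, -1.26 ± 0.092) also fell, as did miR-138-5p (-1.32 ± 0.11), miR-674-3p (-1.26 ± 0.13) and miR-1983 (-1.38 ± 0.13), and in none of these did the groups overlap.

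miR-132-3p, a neuronal miRNA induced by activity and the target of AM132, was 551 to 754 CPM in batch 2 (median 653), against 1431, 1389, 1372 and 1208 CPM in batch 1 and 1272, 1189, 1563 and 1220 CPM in batch 3. These mice did not receive the oligonucleotide against it. The log2 fold change was -1.01 ± 0.077 (2.02-fold lower, adjusted p = 4.53e-10). On chromosome 11, where miR-212 neighbours miR-132, the 4 arms of the pair all fell, miR-132-5p by -1.20 ± 0.089, miR-212-5p by -0.81 ± 0.082 and miR-212-3p by -0.68 ± 0.099 on the log2 scale. miR-194-5p, a liver and gut miRNA named in the title of the study, was 266 to 373 CPM in batch 2 and 263 to 364 CPM in batches 1 and 3 (log2 fold change 0.08 ± 0.085, adjusted p = 0.397), and was called only with scaling over both tables (0.35) or library totals (0.51).

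Lists of miRNAs by cell type and locus moved unequally; their counts are set against the 29.2% higher and 33.6% lower of all 554. The neuronal list had 21 tested members, 12 lower and 5 higher (median log2 fold change -0.47). There were 11 lower and 9 higher with TMM over both tables (median -0.21), and 10 lower and 9 higher with library totals alone (median -0.05). miR-124-3p, the classical neuronal miRNA, fell by 1.15 ± 0.073 (3140 ± 376 CPM in batch 2, 6968 ± 502 CPM in the others; SD, n = 8 each), while miR-135a-5p was higher (1.51 ± 0.32). The pituitary and neuroendocrine list had 7 higher and 1 lower of 12 (median 1.64), and 4 higher and 1 lower without library 5 (median 1.12) and in DESeq2 (median 1.08). With TMM over both tables and with library totals alone it had 8 higher and 0 lower (medians 1.91 and 2.04). The list summed to 99288 to 196090 CPM in batch 2, or at most 144460 without library 5, and to 29523 to 55345 CPM in batches 1 and 3, most of it miR-7a-5p. The part of pituitary tissue in these values was not tested.

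The oligodendrocyte list had 4 higher and 1 lower of 5 (median 1.48). miR-219a-2-3p, which drives myelination, was 1055 to 1960 CPM in batch 2 and 171 to 817 CPM in batches 1 and 3 (1.8 ± 0.31, adjusted p = 0.00012), and miR-338-3p, its partner in oligodendrocyte maturation, 363 to 607 CPM and 118 to 264 CPM (1.48 ± 0.17). miR-23a-3p was the member that fell (-0.70 ± 0.11). The list summed to 2441 to 4029 CPM in batch 2 and 977 to 2275 CPM in batches 1 and 3.

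The endothelial and mural list had 8 lower of 8 (median -1.02), and with library totals alone 4 lower and 1 higher. miR-143-3p, of smooth muscle and pericytes, was 3252 to 5011 CPM in batch 2 and 6450 to 21545 CPM in batches 1 and 3, the top value being library 3 of batch 1 (-1.24 ± 0.23, adjusted p = 0.000197; -0.97 without library 3). miR-126a-3p, of endothelium, fell by 0.46 ± 0.092. In AM132 the median of this list was -0.35 and miR-143-3p stood at -0.20 ± 0.32, and the difference between oligonucleotides was not called (interaction -1.02 ± 0.40, unadjusted p = 0.0154, edgeR adjusted p = 0.998). The erythroid list had 0 higher and 2 lower of 6, miR-16-5p and miR-92a-3p, the call of miR-92a-3p ending with RLE scaling, in DESeq2 and without any of 10 single libraries; miR-451a, of red cells, was -0.80 ± 0.43.

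Among 12 tested miRNAs of choroid plexus and ciliated cells, 7 rose and 2 fell (median 0.33). The miR-34 arms made up 4 of the 7, while miR-204-5p, the abundant choroid plexus miRNA, was 2863 ± 128 CPM in batch 2 and 2388 ± 366 CPM in batches 1 and 3 (SD, n = 8 each; 0.26 ± 0.08), and miR-449a-5p, which shares the miR-34 seed region and marks ciliated cells, was 3.55 and 3.29 CPM (0.06 ± 0.23). The hypoxia and p53 list, 3 higher of 4, was likewise led by miR-34 members, and hypoxia-induced miR-210-3p was 21.3 and 19.8 CPM (0.10 ± 0.14).

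The let-7 guide arms, which share a seed and repress growth genes, had 9 lower and 0 higher of 10 (median -0.52). let-7f-5p was 29334 to 34017 CPM in batch 2 and 42738 to 51822 CPM in batches 1 and 3 (-0.56 ± 0.052), and miR-98-5p alone was not called (-0.05 ± 0.053). Under library totals 5 were lower and 1 higher (median -0.10), and let-7g-5p turned to 0.05. The miR-17/92 clusters had 6 lower of 9 (median -0.30), the energy balance and lipid list 6 lower of 12 (-0.28) and the astrocyte list 2 lower of 4 (-0.27). With library totals alone all 3 medians turned positive (0.11, 0.13 and 0.15). The astrocyte members called lower were miR-29a-3p (-0.51) and miR-143-3p, which the endothelial and mural list also holds, while miR-29c-3p was not called (0.06). miR-378a-3p, from the Ppargc1b locus of energy metabolism, was 612 to 707 CPM in batch 2 and 1344 to 1512 CPM in batches 1 and 3 (-1.14 ± 0.055, adjusted p = 2.86e-13), and miR-107-3p, a regulator of insulin sensitivity, 341 to 472 CPM and 602 to 791 CPM (-0.75 ± 0.078). In AM132 miR-378a-3p stood at -0.52 ± 0.30, not called.

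The myeloid list had 4 lower and 1 higher of 7 (median -0.46): miR-146a-5p (-0.64 ± 0.085) and miR-150-5p (-0.67 ± 0.093), regulators of inflammation and lymphocytes, fell and miR-21a-5p rose (0.55 ± 0.088). There were 3 lower and 3 higher with TMM over both tables, and 2 lower and 3 higher with library totals alone (median -0.05). The muscle list had 1 higher of 4, miR-499-5p, from an intron of Myh7b (1.51 ± 0.097), with miR-1a-3p at -0.03 ± 0.15. The liver list had 1 higher of 5, miR-122-5p, at 44.2 CPM in batch 2 and 30.9 CPM in the others (0.52 ± 0.11); 3 of 5 were higher with RLE scaling and in DESeq2, and 5 of 5 with TMM over both tables or library totals alone. Another muscle miRNA, miR-206-3p, was 4.17 ± 1.72 CPM in batch 2 and 5.25 ± 2.86 CPM in the others (SD, n = 8 each).

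**Figure D4:**
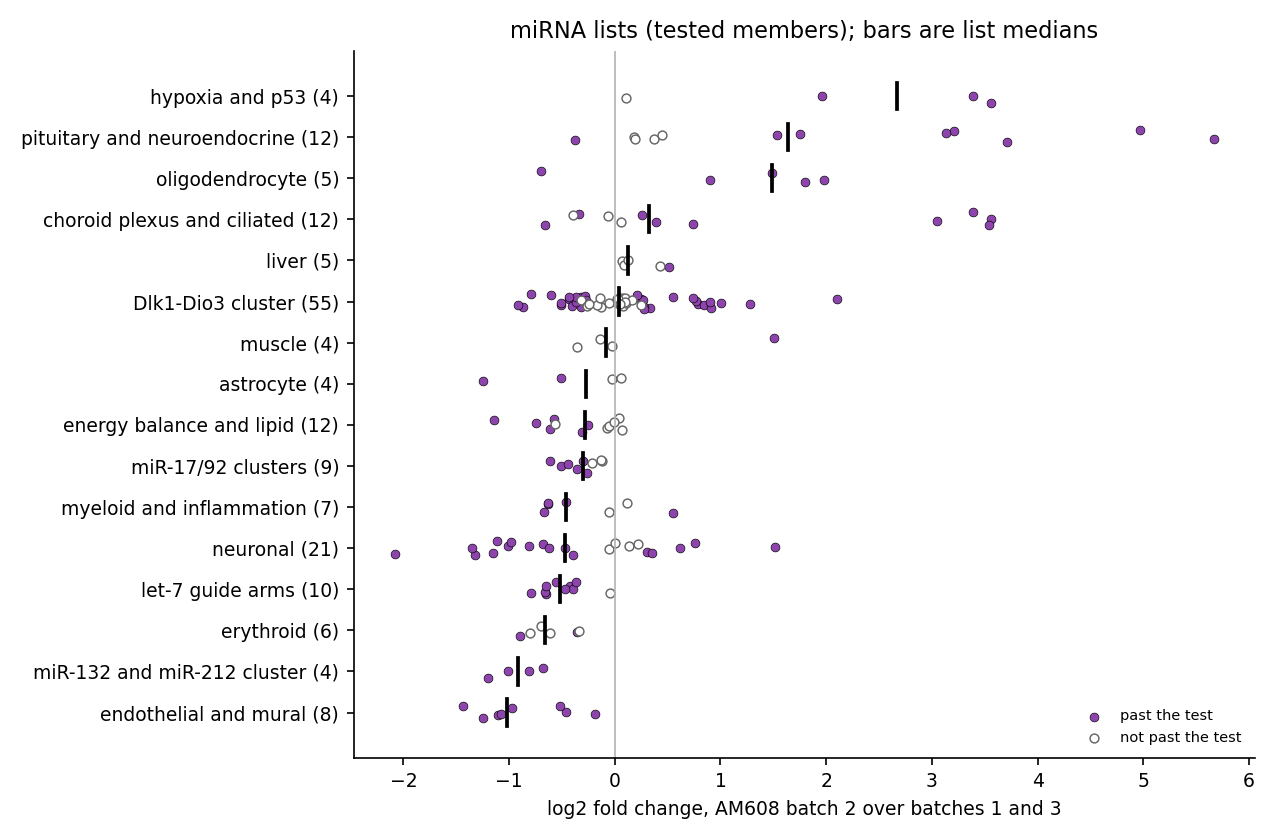
Log2 fold change of batch 2 over batches 1 and 3 for tested members of 16 miRNA lists; each point is a miRNA, filled where it passed the test, and bars are list medians, with the number tested in brackets. By their medians the pituitary list, the oligodendrocyte list and the hypoxia and p53 list lie to the right. The endothelial, miR-132 and let-7 lists lie to the left, while the 55 members of the Dlk1-Dio3 cluster spread over both sides.

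The Dlk1-Dio3 cluster on chromosome 12, imprinted and rich in neuronal miRNAs, had 17 higher and 17 lower of 55 (median 0.04), near the shares of all miRNAs tested, and 34 higher and 2 lower under library totals alone. Among these 55 listed members the highest were miR-758-3p (2.10 ± 0.12) and miR-134-5p, a regulator of dendritic spines (1.28 ± 0.068; 495 to 627 CPM in batch 2, 204 to 270 CPM in the others), and the lowest were miR-494-3p (-0.91 ± 0.24) and miR-337-5p (-0.87 ± 0.086).

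Both arms of a hairpin were rarely called in opposite directions. Of 157 hairpins with both arms tested, 65 had both arms called in one direction and 6 in opposite directions, 54 had 1 arm called and 32 none; the Pearson correlation between arms was 0.889, and the median gap was 0.23 on the log2 scale. Among the 6, mir-127 and mir-376b had both arms at 100 CPM or more. miR-127-5p fell (655 to 763 CPM in batch 2, 811 to 1001 CPM in batches 1 and 3; -0.32 ± 0.061) and miR-127-3p rose (1154 to 1613 CPM and 854 to 1206 CPM; 0.33 ± 0.081). miR-376b-5p rose by 0.22 ± 0.063 and miR-376b-3p fell by 0.32 ± 0.094. The falls of miR-127-5p and miR-376b-3p turned to 0.09 and 0.10 under library totals alone, neither called.

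For 473 of the 554 with a RefSeq sequence, the share called ran from 59.5% to 64.5% over 4 bands of GC content, and from 56.8% (U) to 70.4% (G) by first base, against 62.8% of all. The directions differed between classes: miRNAs over 55% GC had 50 higher and 30 lower of 125, those of 45 to 55% GC had 41 and 75 of 190, those starting with C had 19 and 43 of 93, and those starting with G had 21 and 17 of 54. Across these 473 the log2 fold change correlated with GC at a Pearson value of 0.0025 and a Spearman value of 0.09. With length the values were -0.0016 and -0.013. Weighted by counts, mature miRNAs were 42.004 ± 0.31% GC in batch 2 and 42.6 ± 0.26% in batches 1 and 3 (SD, n = 8 each; exact permutation, adjusted p = 0.00148), and 22.28 ± 0.03 and 22.06 ± 0.03 nt long (adjusted p = 0.000738). Both values come from RefSeq sequences and not from read lengths, and leave out miRNAs lacking a sequence. The GC difference was smaller without the 10 most abundant miRNAs (-0.23 percentage points, exact permutation adjusted p = 0.0906). At equal depth more miRNAs were detected in batch 2, 944 ± 9.1 against 891 ± 13.7 (SD, n = 8 each; exact permutation, adjusted p = 0.000738).

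tRFs had lower raw counts in batch 2 and came in other proportions. Their counts were 86554 ± 19321 per library in batch 2 and 142450 ± 39993 in batches 1 and 3 (SD, n = 8 each; exact 2-sided permutation, adjusted p = 0.00426), with 117200 in batch 1 and 167700 in batch 3 on average; against batch 1 alone the difference was not called (adjusted p = 0.115), nor without libraries 8, 10 and 12 (0.05413). Per 100 miRNA counts they were 2.49 ± 0.72 and 3.48 ± 1.00 (exact permutation, adjusted p = 0.0536). Of 489 tRFs tested, 97 were higher (19.8%) and 34 lower (6.95%) in edgeR, and 102 of these changed by at least a log2 fold change of 1, 72 higher and 30 lower. DESeq2 gave 93 and 133 and RLE scaling 83 and 79 (51.2% of calls higher). The median of all tRFs was -0.29 in both, against -0.08 in the main fit. With no low-count filter 150 of 255 calls were lower. The share of falls thus depends on the scaling, the test and the filter. In 58 of the 489 tRFs tested, all of them called, the groups did not overlap, 51 above and 7 below.

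More tRFs were called against batch 3 than against batch 1. Batch 2 minus batch 1 gave 66 higher and 9 lower tRFs (15.3%), batch 2 minus batch 3 gave 114 and 56 (34.8%), and batch 3 minus batch 1 gave 0 higher and 5 lower (1.02%; 55 at an unadjusted p under 0.05). Whether the first 2 counts differ was not tested. In AM132, 59 were higher and 31 lower of 493 (18.3%); of the 120 AM608 calls tested there 119 had the same sign and 67 were called, with a Pearson correlation of 0.913 over 457 tRFs. The difference between oligonucleotides called 0 of 628 (0%) in edgeR, with 13 at an unadjusted p under 0.05.

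By length, calls differed in direction, against 19.8% higher and 6.95% lower among all tRFs tested; most members of each band were not called. Among fragments of 16 to 20 nt 41 were higher and 1 lower of 124, and among those of 21 to 25 nt 28 and 2 of 72. Among fragments of 26 to 30 nt 0 were higher and 9 lower of 61, and among those of 31 to 35 nt 2 and 19 of 142. Among fragments of 36 to 50 nt 26 were higher and 3 lower of 90. Fragments of that length held 21.8 to 66.7% of tRF counts in batch 2 (median 36.6%). In batches 1 and 3 they held 13.3 to 37.7% (median 17.2%). Fragments of 31 to 35 nt, the length of 5'-halves, held 12.095 to 55.2% of tRF counts in batch 2 (median 39.8%) and 45.6 to 70.5% in batches 1 and 3 (median 65.9%).

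By type, the share of tRF counts in 5'-halves was lower in batch 2 and those in 5'-tRFs and 3'-halves higher. Single fragments are set against the same 19.8% higher and 6.95% lower. 5'-halves, the stress-induced products of cleavage at the anticodon, had 0 higher and 10 lower of 47 tested and took 17.7 ± 4.94% of tRF counts in batch 2, against 28.01 ± 4.9% in batches 1 and 3 (SD, n = 8 each; exact permutation, adjusted p = 0.00118). 3'-halves had 10 higher and 0 lower of 14 and took 1.47 ± 0.58% and 0.755 ± 0.27% (exact permutation, adjusted p = 0.00258). The differences in 5'-halves and 3'-halves were called with each library left out in turn. That of 3'-halves was not called against batch 1 alone (exact permutation, adjusted p = 0.162). 5'-tRFs took 42.2 ± 15.2% in batch 2 and 23.5 ± 9.88% in the others (SD, n = 8 each, exact permutation adjusted p = 0.021). That difference was not called against batch 1 alone (0.316) or without libraries 8, 10 and 12 (0.0989). The 50-nt LysCTT fragment described below is a 5'-tRF. Shares are parts of a whole, so a larger share of 5'-tRFs goes with smaller shares elsewhere. Internal fragments had 68 higher and 15 lower of 263, and 65 and 66 in DESeq2.

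By amino acid, leucine, glutamine and asparagine had the larger shares of higher calls, against 19.8% higher and 6.95% lower of all tRFs. Leucine had 39 higher and 0 lower of 52 tested and took 7.67 ± 2.39% of tRF counts in batch 2 and 3.35 ± 1.04% in batches 1 and 3 (SD, n = 8 each; exact permutation, adjusted p = 0.000738). The lowest batch 2 library had 5.63% and the highest of the others 5.23%. Glutamine had 10 higher of 18 and asparagine 8 of 12, with 0 lower in either on the TMM scale. In DESeq2 and with RLE scaling 2 glutamine fragments were lower. Internal fragments made up 37 of the 39 higher leucine calls and all 10 higher glutamine calls. Counts by amino acid, type and length therefore share fragments and are not separate results. Glutamate fragments, with 6 higher and 10 lower of 93, took 23.5 ± 7.03% in batch 2 and 37.6 ± 5.02% in the others (exact permutation, adjusted p = 0.00253; 0.0704 against batch 1 alone). Lysine fragments, named in the title of the study, had 3 higher and 6 lower of 112 on the TMM scale. That is a share of lower calls near that of all tRFs and a smaller share of higher calls. They took 50.7 ± 8.82% and 41.8 ± 6.44% (exact permutation, adjusted p = 0.0536). In DESeq2 44 lysine and 38 glutamate fragments were lower, among 133 lower tRFs in all. With RLE scaling 19 lysine and 24 glutamate fragments were lower, among 79 in all. Higher calls in both settings were 4 for lysine and 7 for glutamate.

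**Figure D5:**
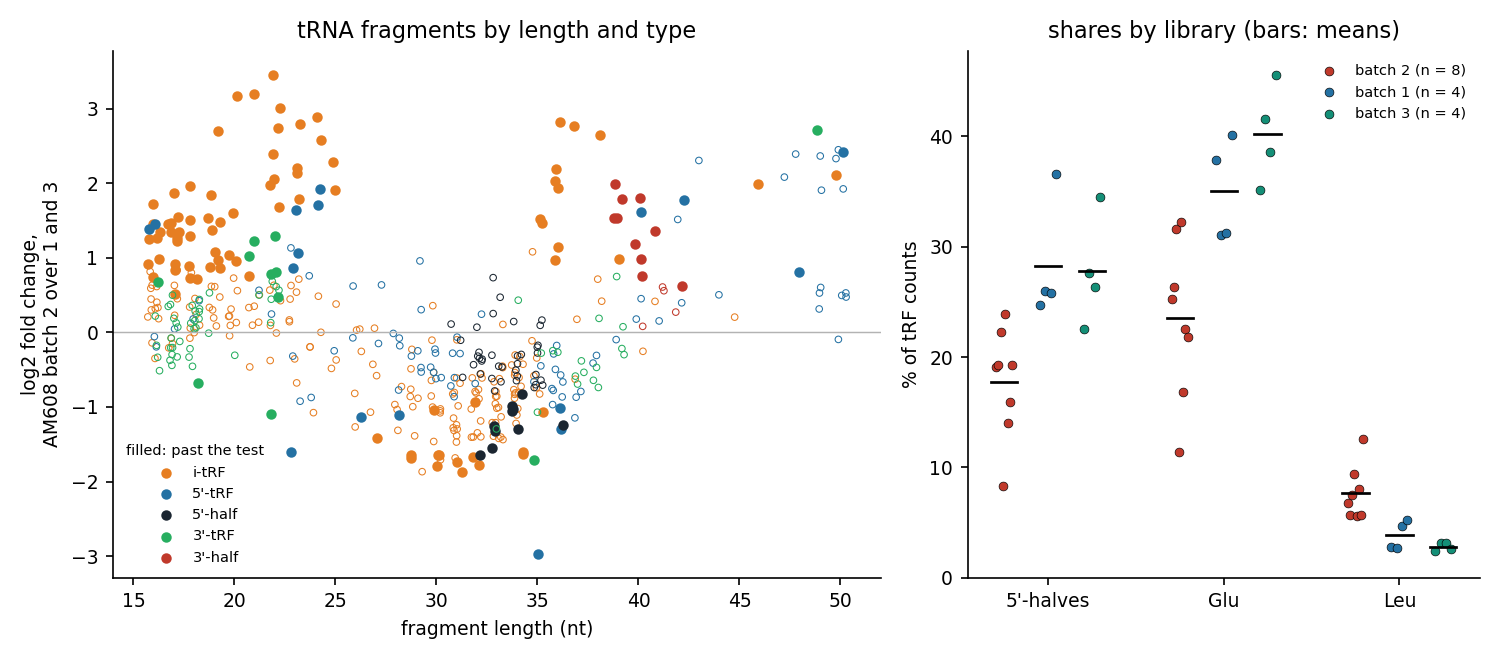
Left, log2 fold change of batch 2 over batches 1 and 3 against fragment length for 489 tRFs, coloured by type and filled where the test was passed; right, share of tRF counts in 5'-halves, glutamate and leucine fragments in each AM608 library, batch 2 left of batches 1 and 3, with bars at means. Called fragments of 16 to 25 nt lie mostly above 0 and called 5'-halves below it, and leucine shares are 5.63% or more in batch 2 and at most 5.23% in the others.

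tRF-23-DRFU8U767, the internal glutamine piece printed above, was 2552 to 4825 CPM of the tRF table in batch 2 (median 3207), against 370, 491, 648 and 718 CPM in batch 1 and 556, 521, 291 and 464 CPM in batch 3. All batch 2 libraries lay above the others (log2 fold change 2.80 ± 0.25, adjusted p = 2.34e-07), and the nested tRF-19-DRFU8U25 followed it (2.69 ± 0.28). The leucine piece tRF-18-W96KM80E was 3406 to 5190 CPM in batch 2 and 689 to 1551 CPM in batches 1 and 3 (1.96 ± 0.23, adjusted p = 3.98e-06), with tRF-17-W96KM8N at 1.87 ± 0.21 and tRF-16-NS5J7KE at 1.34 ± 0.26. tRF-18-I958M80E, from the same part of LeuTAG, was 4610 to 7365 CPM and 1447 to 2871 CPM (1.5 ± 0.22). With no low-count filter the calls of tRF-16-NS5J7KE (0.93, edgeR adjusted p = 0.176) and tRF-18-I958M80E (1.09, 0.0697) ended. Of the 5' end of HisGTG, the short tRF-24-XSXMSL732Z rose (1.71 ± 0.22) and the 5'-half tRF-34-6SXMSL73VL4YHE fell (-0.99 ± 0.32, adjusted p = 0.0276), the second call ending without library 5 (0.0507) or library 12 (0.0515).

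Among fragments that fell, the GlyGCC 5'-half tRF-32-P4R8YP9LON4V3 was 379 to 854 CPM in batch 2, against 1826, 1500, 1100 and 2282 CPM in batch 1 and 2441, 1492, 957 and 2480 CPM in batch 3 (-1.64 ± 0.27, adjusted p = 0.000104). The groups did not overlap. The LysCTT 5'-half tRF-34-PSQP4PW3FJI0E5 was 1802 to 7138 CPM in batch 2 and 7610 to 21022 CPM in the others (-1.29 ± 0.31, adjusted p = 0.00407), again without overlap, and tRF-33-PSQP4PW3FJI0W, one base shorter, stood at -1.25 ± 0.34 with overlapping groups. The GluCTC 5'-half tRF-34-87R8WP9N1EWJI5 was 7647 to 19524 CPM and 15909 to 49412 CPM (-1.03 ± 0.28, adjusted p = 0.0107). The internal GluCTC piece tRF-31-389MV47P596VE (-1.73 ± 0.62, adjusted p = 0.0455) lost its call without any of 11 single libraries and without libraries 8, 10 and 12 together.

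The most abundant tRF varied widely between libraries. tRF-50-PSQP4PW3FJIKE7UMKKSW, 50 nt from the 5' end of LysCTT, was 28604 to 517180 CPM in batch 2 (median 165420), against 15480, 204600, 119800 and 6453 CPM in batch 1 and 75.6, 109, 25.9 and 2241 CPM in batch 3. All 8 batch 2 libraries exceeded batch 3 but overlapped batch 1. Its log2 fold change against both was 2.45 ± 1.3 (edgeR adjusted p = 0.166), with 8.63 against batch 3 (adjusted p = 0.000762) and 1.46 against batch 1 (0.449). With a 3-level batch factor it was called higher in batch 2 than in the others (5.04, edgeR adjusted p = 0.000915). The count-weighted tRF length was 36 ± 2.98 nt in batch 2 and 33.1 ± 1.52 nt in the others (SD, n = 8 each; exact permutation, adjusted p = 0.0497), a call that ended against batch 1 alone (0.345), without libraries 8, 10 and 12 (0.111) and without any of 12 single libraries.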

How the data were processed

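Hypothalamus RNA (miRNeasy kit) was made into NEBNext small RNA libraries and read on a NextSeq 500, per the labels' protocols. The authors deposited raw counts for 1978 mature miRNAs and 17051 tRFs; in these deposited count files, 0 columns belonged to other samples. FastQC is named in the submitters' processing notes; aligner, miRNA release, genome build and tRNA reference are not given in the sources used here, nor is how reads shared by near-identical miRNAs were assigned. The members and lists were chosen with earlier results of these data known.

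The count analysis used edgeR 4.0.16 (limma 3.58.1, R 4.3.3): filterByExpr (minimum count 10, minimum total 15), TMM within each table, robust quasi-likelihood F tests and Benjamini-Hochberg adjustment at 0.05. Each SE was taken as the size of the log2 fold change over the root of its F statistic. CPM used TMM factors of the 16 AM608 libraries. Single-batch contrasts used a 3-level batch factor, and the difference between oligonucleotides an interaction over 32 libraries. The 19 library values were compared by exact permutation of 8 against 8 (12870 splits); equal depth was the lowest library's total. Positions are RefSeq GRCm38.p6, with genes from GENCODE vM21.

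Named were miRNAs past the test at a mean of 100 CPM or more, the 12 of largest change each way; the 10 most abundant; miR-132-3p and miR-194-5p; the 2 of smallest p per list; and up to 4 hairpins with arms called in opposite directions. tRFs needed 1000 CPM, with 8 each way and the 5 most abundant. Members of lists beyond those, and miR-216a-5p, miR-216b-5p, miR-217-5p, miR-653-5p and miR-128-1-5p, were named after their values were seen. Alternatives were RLE scaling, TMM over both tables, library totals alone, DESeq2 1.42.0, other filters, a 3-level batch factor, a fold threshold, each library left out and, chosen after seeing the data, libraries 8, 10 and 12 left out. Same-numbered AM608 and AM132 libraries did not all deviate together (correlations -0.368 to 0.567 over 16 pairs of miRNA libraries), and numbers were not taken to pair them. These correlations cannot settle whether the numbers mark pairs. On simulated data with 200 changed features (AM608 batch 2 against the others; 542 miRNAs, 463 tRFs) the tests found 96.9% of miRNAs and 46.5% of tRFs changed by 1 on the log2 scale, and 77.8% and 9.38% of those changed by 0.5. Counting intervals would cover counting error only, since reads carry no molecular identifiers.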

Additional observations from a re-analysis of the deposited data

Results flagged for a closer look

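Within a batch, 33 values in 309 groups of 4 or 8 libraries lay apart from the rest of their group by Dixon's criterion; chance gives about 1 in 20 groups. Library 13 of batch 3 held 6 of them, library 5 of batch 2 and library 4 of batch 1 held 5 each, and library 3 of batch 1 held 4; batch 2 held 12 in all.

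In batch 2, library 5 was high in miR-375-3p (13770 CPM, next 199), miR-200c-3p (1745, next 45.3), miR-200b-3p (1706, next 160) and miR-200a-3p (1981, next 303) and low in miR-215-5p (2.623, next 3.56). Library 12 was high in miR-221-3p (1448 CPM, next 1140), in tRFs detected at equal depth (2711, next 2350), in 3'-halves (2.863% of tRF counts, next 1.47%) and in 3'-tRFs (8.524%, next 4.88%). Single high values were tRF-16-RPM830D in library 8 (4481 CPM), tRF-16-NS5J7KE in library 10 (4174) and tRF-33-PSQP4PW3FJI0W in library 9 (5373).

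In batch 1, library 3 was high in miR-143-3p (21540 CPM, next 7660), miR-145a-3p (609.8, next 301), miR-146a-5p (1774, next 1380) and miR-378a-3p (1512, next 1360). Library 4 was high in miR-758-3p (131.6 CPM), miR-20a-5p (107.8), miR-653-5p (6.301), miRNA counts (5815000, next 3630000) and 5'-halves (36.58%, next 25.9%). Library 1 was high in miR-127-3p (1206 CPM) and i-tRFs (52.09%, next 32.4%) and low in miR-215-5p (1.024 CPM) and tRF-24-XSXMSL732Z (508.1 CPM).

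In batch 3, library 13 was low in miR-128-3p (155500 CPM, next 213000), miR-674-3p (827.2, next 1300) and let-7i-5p (20640, next 25900) and high in miR-134-5p (269.8), miR-653-5p (8.291) and count-weighted miRNA length (22.09 nt). Library 16 was high in tRF-34-PSQP4PW3FJI0E5 (21020 CPM, next 11500) and tRF-50-PSQP4PW3FJIKE7UMKKSW (2241, next 109).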

How the results depend on the processing

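With each AM608 library left out, 336 to 359 miRNAs and 111 to 165 tRFs were called. A log2 change of at least 1 left 103 miRNAs (56 higher, 47 lower). TMM over both tables gave 262 higher and 115 lower, and library totals alone 302 and 90. Library totals turned miR-99a-5p (0.36), let-7g-5p (0.048), miR-92a-3p (0.053), miR-127-5p (0.088) and miR-376b-3p (0.10) positive, and TMM over both tables miR-99a-5p (0.20). tRF calls were 226 in DESeq2, 255 with no low-count filter and 86 without libraries 8, 10 and 12; lower tRFs were 79 with RLE, 133 in DESeq2, 150 with no filter, 17 without those libraries and 22 to 50 with one library left out. Batch 3 minus batch 1, fitted alone, gave 0 miRNAs in edgeR (71 at an unadjusted p under 0.05 in the fit of all 3 batches) and 1 tRF; with one library left out it gave 0 to 30 and 0 to 9. tRF counts per 100 miRNA counts differed by -1.49 against batch 3 alone, and by -1.21 to -0.78 with one library left out. GC differed by -0.43 against batch 1 alone and -0.23 without the 10 most abundant miRNAs. tRF length differed by 1.86 nt without libraries 8, 10 and 12, by 2.04 against batch 1 and by 2.15 to 3.40 with one library left out. The glutamate share differed by -11.56 percentage points against batch 1 alone. The cause was not tested. With the replicate number as a block, the difference between oligonucleotides called 0 miRNAs and 0 tRFs in edgeR (lowest adjusted p 0.385 and 0.998); numbers were not taken to pair the libraries, since not every pair correlated over 0.1 (11 of 16 for miRNAs and 8 of 16 for tRFs did), and 5 and 2 libraries correlated best with their own number. tRF depth limits small changes.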
